A study of Rattus rattus with 8 samples.

Results

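Heme is made in the liver largely to supply cytochrome P450 enzymes, and the genes described here are 9 enzymes of its synthesis and breakdown: Alas1, Alad, Urod, Cpox, Ppox, Fech, Hmox1, Blvra and Blvrb. They were chosen by exact match of their symbols to the probe table of the array, where all 9 were found, with 27 of the 45904 features that carry a gene symbol. All 9 were among the 10944 genes, of 16945 named on the array, whose signal was high enough to be tested. Livers came from male WH rats whose feed held sodium phenobarbital (NaPB) at 2500 ppm (4 rats) or at 0 ppm (4 control rats) over 7 days. NaPB is a barbiturate sedative and an activator of CAR, a nuclear receptor of liver. Each rat gave 1 single-colour (Cy3) Agilent array of total liver RNA, with no pooling. All were intact rats with no transgene named in the labels, which call the species Rattus rattus, and their age is not given in the sources used here.

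Heme synthesis starts in the mitochondrion, where aminolevulinate synthase (Alas1 in liver, Alas2 in red cell precursors) makes aminolevulinate, passes through the cytosol, where Alad, Uros and Urod act, and returns to the mitochondrion with Cpox, Ppox and ferrochelatase (Fech), which inserts iron. The Alas1 step sets the rate in liver, is repressed by heme and is known to be induced by barbiturates. Heme oxygenase (Hmox1, inducible, and Hmox2, constitutive) opens the ring to biliverdin, which biliverdin reductases turn into bilirubin.

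Values are scaled intensities: the 75th percentile over the named features of an array was set to 1, and a gene is the mean of its features on the log2 scale. Levels of different genes are not comparable, because each depends on its own probe. None of the 216 feature values of the 9 genes lay at the floor of 0.03 set for low values. The share of named features at that floor was 31.8% to 34.5% by array. Across all features r was 0.981 to 0.989 among control arrays, 0.977 to 0.984 among NaPB arrays and 0.973 to 0.984 across the diets. The 8 hepatocyte markers examined, among them Alb and Ttr, were all measured. No slide, scan date or batch is given. With 4 arrays per diet, their number limits the precision.

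Of the 9 enzyme genes, 1 rose with NaPB at a Benjamini-Hochberg adjusted p under 0.05 over all genes tested in limma, and none fell. That gene was Blvrb, at 1.55-fold. Across all tested genes 10.5% changed by this rule, 6.16% higher and 4.29% lower, so that 1 call in 9 genes lay near the background. Without adjustment 5 of the 9 had p under 0.05 (Alas1, Ppox, Fech, Hmox1 and Blvrb), beside 26.8% of all tested genes. The arrays of the diets did not overlap in 4 of the 9, higher with NaPB in Alas1, Fech and Blvrb and lower in Cpox, beside 19.1% of all tested genes (10.8% higher and 8.36% lower). The median log2 change of the 9 was 0.03, and over all tested genes it was 0.0015. In bulk liver, fewer cells of a type and less RNA per cell cannot be told apart.

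**Figure D1:**
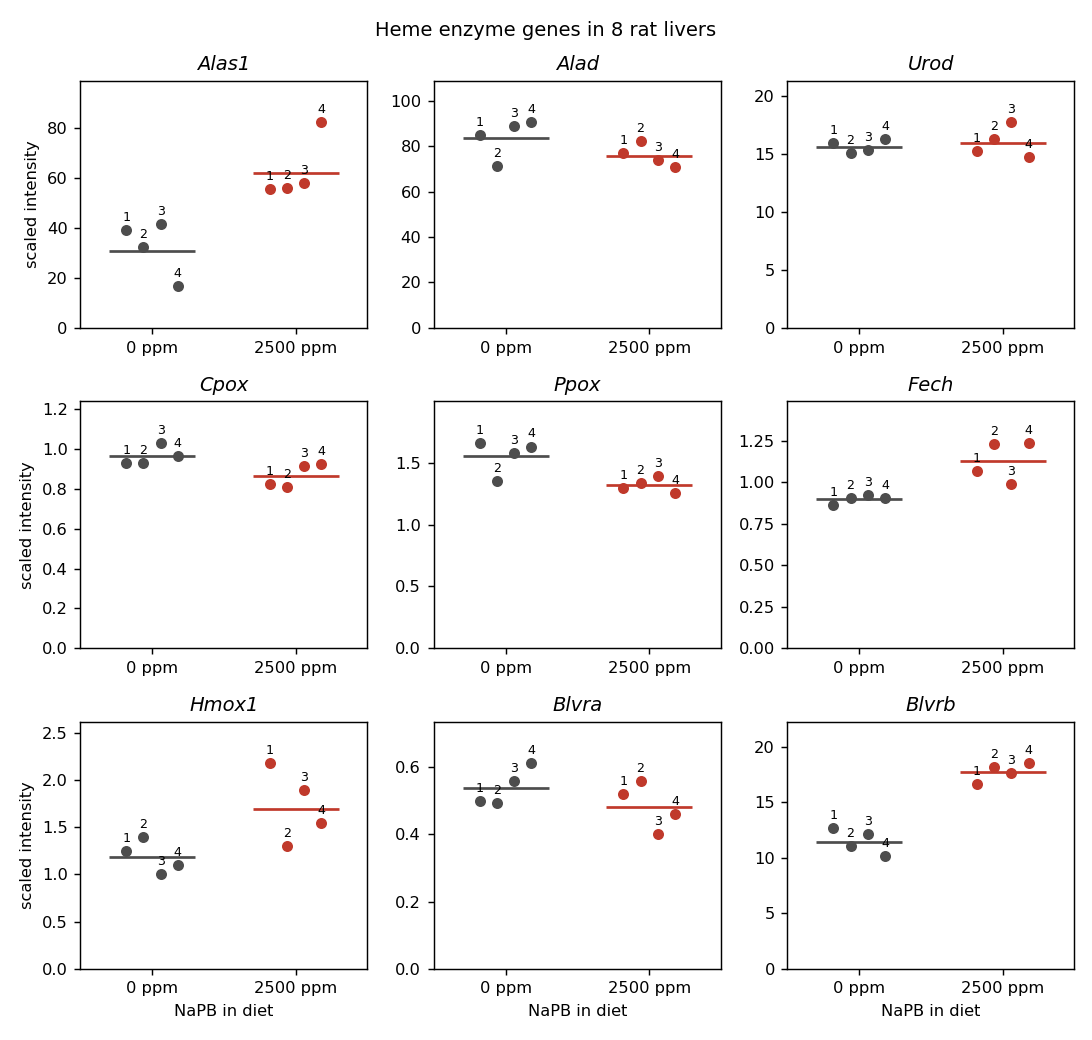
Scaled intensity (linear axis from 0) of the 9 enzyme genes in every liver, by diet; points are arrays with their replicate number and lines are geometric means of 4 arrays. All 4 NaPB arrays lay above all 4 control arrays in Alas1, Fech and Blvrb, and below them in Cpox.

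Alas1, the enzyme of the first step, had the largest difference of the 9. The control livers were at 39.2, 32.4, 41.5 and 17.0 in replicates 1 to 4. The NaPB livers were at 55.6, 56.1, 58.0 and 82.5. All NaPB arrays lay above all control arrays, with control replicate 4 far below the other controls and NaPB replicate 4 above the other treated livers. The mean level was 30.8 in control and 62.2 in NaPB livers, a log2 change of 1.02 ± 0.28 (here and below the SE of the difference from limma, n = 4 rats per group), with a 95% interval from 0.39 to 1.64. The adjusted p was 0.0506 (unadjusted 0.00535), just above the threshold, so that Alas1 is not counted as changed. It ranked 1157 of the 10944 genes by p. The log2 values of the control rats had an SD of 0.59 and those of the NaPB rats an SD of 0.27, whereas the 2 features of Alas1 differed on the same array by an SD of only 0.04. Over all tested genes the median SD between rats of a group was 0.16. Both features gave the same picture, with changes of 1.01 and 1.02 and adjusted p of 0.0608 and 0.0469 in a fit over 30504 features. That fit called 9.69% of all features tested and 6 of the 27 features of the 9 genes, 3 of them of Blvrb. Leaving out control replicate 4, the lowest array, made the difference smaller, at 0.73, and brought it past the threshold (adjusted p = 0.0330). Without any other array it did not pass, with adjusted p up to 0.113.

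Of the cytosolic enzymes, Alad, which joins aminolevulinate into porphobilinogen, was nearly level. Its control livers lay between 71.3 and 90.6 and its NaPB livers between 70.8 and 82.2, and the groups overlapped, with a log2 change of -0.14 ± 0.10 (adjusted p = 0.391, 95% interval -0.36 to 0.08). Urod, the decarboxylase of uroporphyrinogen, had the smallest difference of the 9. It lay between 15.1 and 16.3 in control and between 14.8 and 17.8 in NaPB livers, a change of 0.03 ± 0.08 (adjusted p = 0.842, 95% interval -0.15 to 0.21). Its features had opposite signs, at -0.05 and 0.11, and its gene mean turned to -0.03 with arrays set to a common median. The intervals of both genes leave out a doubling such as the mean difference of Alas1.

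Cpox and Ppox, the mitochondrial oxidases of the late porphyrinogens, were slightly lower with NaPB. Cpox was at 0.928, 0.927, 1.03 and 0.967 in the controls and at 0.824, 0.809, 0.913 and 0.926 in the NaPB livers. The groups did not overlap, but control replicate 2 and NaPB replicate 4 were almost equal, and the change of -0.15 ± 0.08 did not pass (adjusted p = 0.252). Ppox, the gene that is defective in human variegate porphyria, was at 1.66, 1.35, 1.57 and 1.63 in the controls and at 1.29, 1.34, 1.40 and 1.26 in the NaPB livers. Only control replicate 2 lay among the treated livers, below NaPB replicate 3. The change of Ppox was -0.23 ± 0.09 (adjusted p = 0.124, 95% interval -0.43 to -0.04). Its features differed, one at -0.16 with overlapping groups and the other at -0.30 with separate groups (adjusted p = 0.403 and 0.0452 over features). With the brightest feature in place of the mean, Ppox passed at -0.30 (adjusted p = 0.0472).

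Fech, the last enzyme, was at 0.863, 0.905, 0.925 and 0.906 in the control livers, a narrow range. The NaPB livers were at 1.07, 1.23, 0.990 and 1.24, and the groups did not overlap. The mean level went from 0.899 to 1.13, a log2 change of 0.33 ± 0.09 with a 95% interval from 0.12 to 0.53. Its adjusted p of 0.0529 missed the threshold narrowly, as that of Alas1 did. Both features showed 0.32 and 0.33, with adjusted p of 0.0812 and 0.0531. Without NaPB replicate 3, the lowest of the treated livers, Fech passed at 0.39 (adjusted p = 0.0304).

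**Figure D2:**
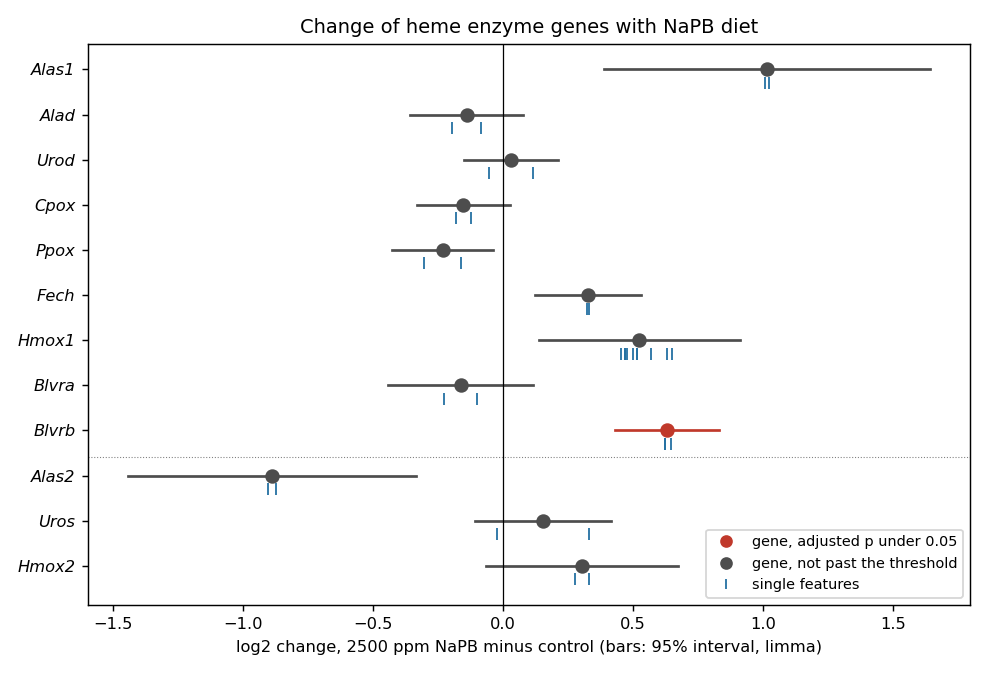
Log2 change of each gene, NaPB minus control, from limma with its 95% interval (circles and bars; n = 4 rats per group) and of its single features (blue ticks); the 9 enzyme genes stand above the dotted line and 3 further genes of the pathway below it. Only Blvrb passed the threshold, while the intervals of Alas1, Fech, Hmox1, Ppox and Alas2 also leave out 0.

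Among the breakdown enzymes, Hmox1, which opens heme to biliverdin, carbon monoxide and iron, was measured by 10 features of 1 transcript accession. The control livers were at 1.25, 1.40, 1.01 and 1.10. The NaPB livers were at 2.18, 1.30, 1.89 and 1.54, so that NaPB replicate 2 lay below control replicate 2 and the other treated livers above every control. The change was 0.53 ± 0.17 (adjusted p = 0.0871, 95% interval 0.14 to 0.91) and did not pass. The features may be repeats of 1 probe, which the probe table does not tell, so that they count as technical repeats. All 10 had a positive change, between 0.45 and 0.65, and 1 of them passed on its own (adjusted p = 0.0453). The features of an array differed by an SD of 0.10 and the rats of a group by an SD of 0.27. Without NaPB replicate 2 the change was 0.65 and passed (adjusted p = 0.0433).

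Blvra, which reduces the main biliverdin isomer to bilirubin, was at 0.499, 0.493, 0.560 and 0.613 in control livers and at 0.521, 0.560, 0.401 and 0.461 in NaPB livers. The groups overlapped, with NaPB replicates 3 and 4 below all other arrays and control replicate 4 above them. Its change of -0.16 ± 0.12 did not pass (adjusted p = 0.437, 95% interval -0.44 to 0.12).

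Blvrb, a reductase that uses NADPH to reduce flavins and other biliverdin isomers, rose. Control livers were at 12.7, 11.0, 12.1 and 10.1. NaPB livers were at 16.7, 18.1, 17.6 and 18.5. Every treated liver lay well above every control liver, and the spread within a diet was small, with SDs of 0.14 and 0.07 on the log2 scale. The mean level went from 11.4 to 17.7, a log2 change of 0.63 ± 0.09 with a 95% interval from 0.43 to 0.83 (adjusted p = 0.00353), and Blvrb ranked 194 of the 10944 genes by p. Its 3 features changed by 0.63, 0.62 and 0.65, all past the threshold with adjusted p of at most 0.00638 over features, although they differ in brightness. Blvrb passed under all 20 alternative settings tried, with changes between 0.57 and 0.68 and an adjusted p of at most 0.0449, whereas Alas1 passed under 4 of them, Fech under 6, and Hmox1 and Ppox under 1 each. Alad, Urod, Cpox and Blvra passed under none of the 20.

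**Figure D3:**
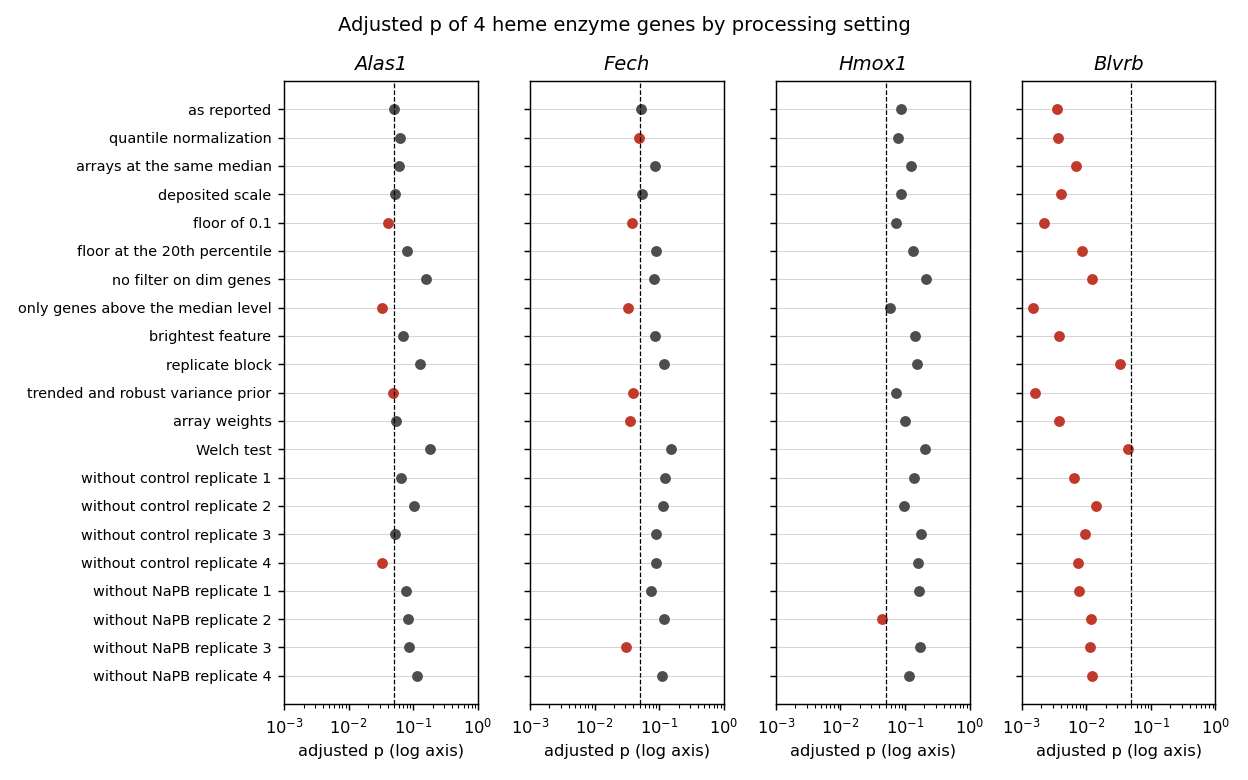
Adjusted p (log axis, Benjamini-Hochberg over all genes tested) of Alas1, Fech, Hmox1 and Blvrb under the reported setting and each of 20 alternatives; the dashed line is the threshold of 0.05 and red points lie below it. Blvrb lay below the threshold in every row, and Alas1 and Fech lay on both sides of it.

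No single treated liver was highest throughout. NaPB replicate 4 had the highest Alas1, Fech and Blvrb of all 8 livers and the lowest Alad, Urod and Ppox. NaPB replicate 1 had the highest Hmox1, and NaPB replicate 3 the highest Urod and the lowest Blvra.

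Differences of change between enzymes were tested within arrays for 3 pairs, by an exact two-sided permutation test over the 8 arrays, whose 70 regroupings give a smallest p of 0.0286. The pairs were chosen with the change of Blvrb known. The log2 change of Blvrb exceeded that of Blvra by 0.79 ± 0.17 (SE, n = 4 rats per group; exact p = 0.0286, the smallest possible, adjusted p = 0.0429 over the 3 pairs). The difference was higher in all 4 NaPB arrays than in any control array. It was between 0.67 and 0.88 when any 1 array was left out. Its unadjusted exact p was 0.0286 in all 8 of these fits and after quantile normalization, so that its adjusted p moved only with the p of the other pairs. The adjusted p passed in only 4 of these 8 fits. It was 0.0857 without control replicate 4 or NaPB replicate 1, 3 or 4, and also after quantile normalization. The change of Alas1 exceeded that of Fech by 0.69 ± 0.32 (exact p = 0.0286, adjusted p = 0.0429). For this pair the lowest NaPB array, at 5.513, barely cleared the highest control, at 5.506 (log2 of Alas1 over Fech within an array), and the adjusted exact p passed in only 3 of the 8 fits that leave out an array, those without control replicate 1, 2 or 3 (otherwise 0.0857 to 0.171). Without control replicate 4 the excess was 0.40. After quantile normalization the adjusted exact p was 0.0857. Hmox1 and Hmox2 differed by 0.22 ± 0.27 in their change (exact p = 0.457).

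Other genes of the pathway that were examined were Alas2, Uros and Hmox2. Alas2, the red cell form of the first enzyme, went the other way from Alas1. It was at 0.686, 0.496, 0.612 and 0.555 in control livers and at 0.478, 0.330, 0.323 and 0.194 in NaPB livers, with all treated arrays below all controls. Its change of -0.89 ± 0.24 missed the threshold (adjusted p = 0.0521), and it passed under 6 of the 20 alternatives: without NaPB replicate 1 (adjusted p = 0.0192), with arrays set to a common median (0.0340), after quantile normalization (0.0430), with a floor of 0.1 (0.0423), with only genes above the median level (0.0336) and with the trended and robust prior (0.0470). Alas2 also belongs to the list of 14 red cell markers, of which 5 others were tested. All 5 had a negative log2 change, between -0.65 and -0.44 with a median of -0.51, 2 of them without overlap between the diets and none past the threshold in the reported setting. With Alas2, the list held 2 calls after quantile normalization, at a common median, with only genes above the median level and without NaPB replicate 1. It held 1 call with the replicate number as a block and without NaPB replicate 3, where Alas2 did not pass. Across all tested genes 8.36% were lower without overlap. Without Alas2 the summed scaled intensity of the 9 listed markers on the array was 106 to 122 in control livers and 55.3 to 99.1 in NaPB livers, which do not overlap. 4 of these markers, among them Klf1 and Gata1, were too dim to test. The part of red cells in the levels of the enzymes was not tested.

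Uros, which closes the porphyrin ring, was dim, between 0.164 and 0.235 in all 8 livers, and did not pass (0.15 ± 0.11, adjusted p = 0.432), with features of opposite sign at -0.02 and 0.33. Hmox2 was at 1.21, 1.47, 1.12 and 1.22 in control livers and at 1.76, 1.92, 1.15 and 1.46 in NaPB livers. NaPB replicates 1 and 2 lay above all controls and replicates 3 and 4 among them, and the change of 0.30 ± 0.16 did not pass (adjusted p = 0.269).

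**Figure D4:**
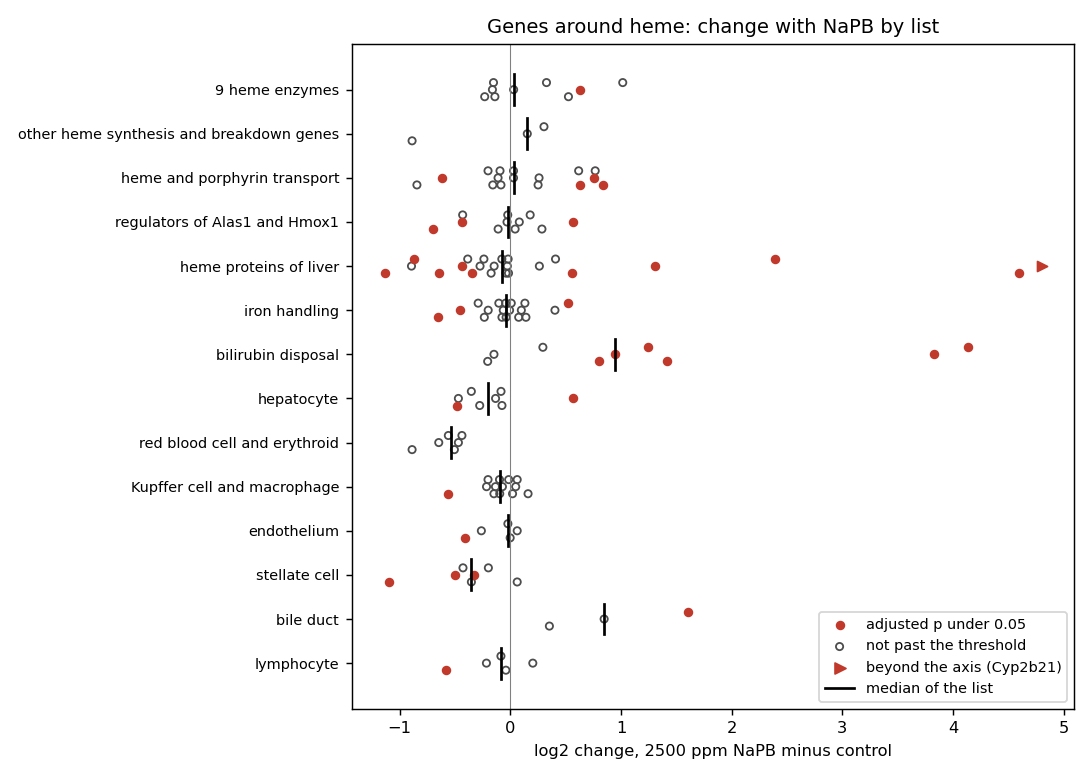
Log2 change (NaPB minus control) of every tested gene in lists around heme and in cell type marker lists; filled red points passed the threshold of 0.05, open points did not, black bars are list medians, and the arrow marks Cyp2b21 beyond the axis. The 9 enzymes lay around 0 with a median of 0.03, and most bilirubin disposal genes lay to the right of 0.

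Genes listed for heme and porphyrin transport, for regulation of Alas1 and Hmox1 and as users of heme were counted beside the enzymes. The lists were chosen with earlier results of these data known. Across all tested genes 6.16% rose and 4.29% fell, the shares to set beside the counts of each list here and below. Of 16 tested genes listed for heme and porphyrin transport, 3 rose and 1 fell, with a median log2 change of 0.03. Slc25a37, which was in this list but imports iron into mitochondria rather than heme, rose by 0.84 ± 0.13 (adjusted p = 0.00586). Its control livers lay between 0.0789 and 0.117 and its NaPB livers between 0.153 and 0.177. Pgrmc1, a heme-binding membrane protein that associates with P450s, rose by 0.75 ± 0.08 (adjusted p = 0.000817), from 12.3 to 14.7 in control livers to 21.4 to 23.1 in NaPB livers. Abcg2, an exporter that also accepts porphyrins, fell by 0.62 ± 0.12 (adjusted p = 0.0138).

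Of 11 tested regulators of Alas1 and Hmox1, 1 rose and 2 fell, with a median of -0.02. Hnf4a, a liver transcription factor, rose by 0.57 ± 0.10 (adjusted p = 0.0123). Nr1i3, the gene of CAR, fell by 0.70 ± 0.18 (adjusted p = 0.0390), and Clpx, a mitochondrial unfoldase that acts on aminolevulinate synthase, fell by 0.44 ± 0.12 (adjusted p = 0.0457). Both calls lay near the threshold and were lost in most of the 8 fits that leave out an array, although the diets did not overlap in either gene. Nr1i3 passed in only 2 of these fits, those without control replicate 4 or NaPB replicate 2 (otherwise up to 0.0901). Clpx passed in only 1, that without NaPB replicate 2 (otherwise up to 0.104). The calls over all genes also went from 1144 to between 625 and 980 in these fits. Ppargc1a, a coactivator known to induce Alas1 in fasting, and Bach1, a heme-sensing repressor of Hmox1, were too dim to test.

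Among 23 tested heme proteins and their partners, 5 rose and 5 fell, with a median of -0.08. The P450s of the phenobarbital-induced family were far higher: Cyp2b2 rose by 4.60 ± 0.13 (adjusted p = 3.17e-07), from 4.41 to 6.49 in control livers to 111 to 138 in NaPB livers. Its 4 features changed by 3.34 to 5.88, so the size depends on the feature more than the SE shows. Cyp2b21 was higher by at least 6.86, a bound because the floor held 5 of the 8 feature values of its controls, and by 5.31 with a floor of 0.1. It entered the fit only through its NaPB arrays, which fixed its direction. No p is therefore given for Cyp2b21, although it is counted among the 5 that rose. Cyp4a1, a fatty acid hydroxylase, fell by 1.14 ± 0.17 (adjusted p = 0.00423), and Cyp1a2, which oxidizes caffeine, fell by 0.87 ± 0.19 (adjusted p = 0.0235). Cyp1a2 did not pass in 4 of the 8 fits that leave out an array, those without control replicate 2, control replicate 4, NaPB replicate 3 and NaPB replicate 4 (up to 0.0545). Por, which was in this list and rose, is a flavoprotein that passes electrons to P450s and holds no heme.

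Of 18 tested genes of iron handling, 1 rose and 2 fell, with a median of -0.04. Hfe, a regulator of iron sensing, rose by 0.52 ± 0.08 (adjusted p = 0.00433). Steap3, an iron reductase, fell by 0.66 ± 0.12 (adjusted p = 0.0136), and the metal importer Slc39a14 fell by 0.45 ± 0.11 (adjusted p = 0.0384), a call that held in only 1 of the 8 fits that leave out an array, the one without NaPB replicate 4 (otherwise up to 0.0868). Of 9 tested genes listed for bilirubin disposal, 6 rose (66.7%) and none fell, with a median of 0.95. Bche, which was in this list and was not called, is a cholinesterase and does not handle bilirubin. Abcc3, an exporter of bilirubin conjugates across the sinusoidal membrane, lay at the floor in all 4 control livers and between 0.440 and 0.569 in NaPB livers, at least 17.5-fold higher (log2 change of 4.13). The bound follows the floor: the log2 change was 2.40 with a floor of 0.1 and 5.80 with a floor at the 20th percentile. Abcc3 too entered the fit only through its NaPB arrays, which fixed its direction. No p is given for it, although it is counted among the 6 that rose. Gsta5, a glutathione transferase of a class that binds bilirubin in the cytosol, rose by 3.83 ± 0.25 (adjusted p = 7.9e-05), with features between 0.85 and 5.34 and a change of 0.85 from the brightest of them alone (adjusted p = 0.00136). Ugt1a1, which conjugates bilirubin, has no feature under that symbol.

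The genes most like Alas1 and Blvrb across the 8 arrays were found among 10426 tested genes with ordinary symbols, by Pearson's r of the log2 values, which includes the difference between diets. Picking the highest r among so many genes on 8 arrays favours high values, also for the deviations from the diet means on the same arrays. The r values here, of Alas1 and of Blvrb, therefore describe the genes picked and test nothing. Coq6, an enzyme of coenzyme Q synthesis, followed Alas1 most closely (r = 0.971, n = 8 arrays), with an r of 0.93 between their deviations from the diet means. Lgals9, which encodes galectin-9 (r = 0.959), and Scnn1a, a sodium channel subunit (r = 0.955), came next, with deviations at 0.905 and 0.909. Control replicate 4 was the lowest of the 8 livers and NaPB replicate 4 the highest in all 3, as in Alas1: Scnn1a was at 0.0544 and 0.343 in these livers and Coq6 at 1.43 and 2.30. Their log2 changes were 1.45 for Scnn1a, 0.29 for Coq6 and 0.32 for Lgals9, in the direction that the choice by r favours. Nearest to Blvrb were Acsf3, a mitochondrial acyl-CoA synthetase (r = 0.988), Gsr, the glutathione reductase (r = 0.987), and Grin2c, a glutamate receptor subunit (r = 0.985), with deviations at 0.865, 0.846 and 0.811. Since Blvrb itself differs between the diets, a high r with it fixes the direction of these genes, whose log2 changes were 1.14 for Gsr, 0.49 for Acsf3 and 2.27 for Grin2c.

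**Figure D5:**
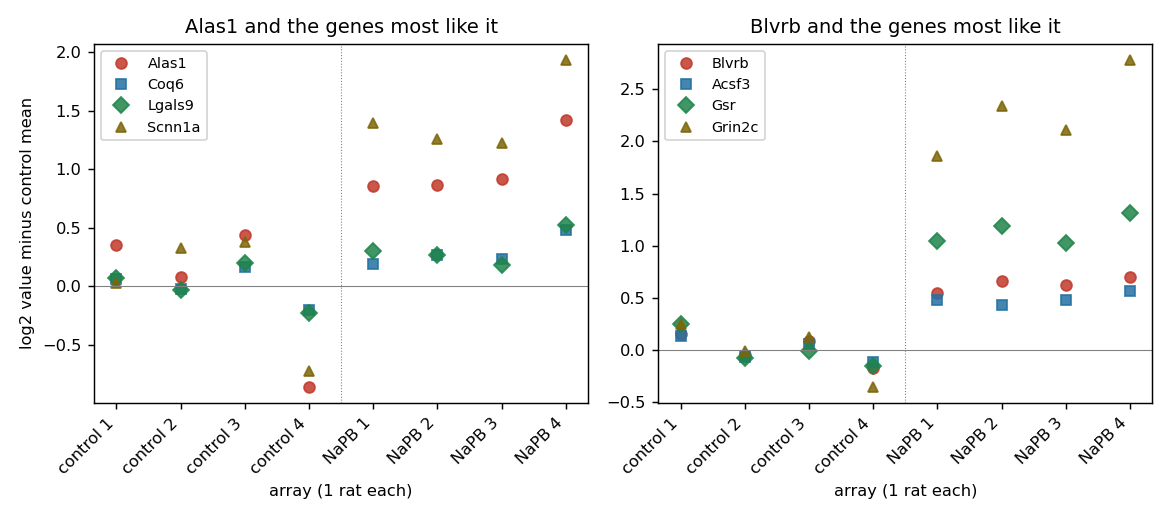
Log2 value minus the control mean of Alas1 (left) and Blvrb (right) and the 3 genes most like each, in every array; the dotted line divides control from NaPB livers. In the left panel control replicate 4 is the lowest and NaPB replicate 4 the highest array in all 4 genes, and in the right panel all NaPB arrays lie above all control arrays.

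Of 33 tested markers of the other cells of the liver, 7 were called (21.2%, beside 10.5% of all tested genes), 1 higher and 6 lower. Epcam, a surface protein of bile duct cells, rose by 1.60 ± 0.11 (adjusted p = 0.000159), and Pdgfrb, a growth factor receptor of stellate cells, fell by 1.10 ± 0.11 (adjusted p = 0.00075). Of 13 tested markers of Kupffer cells, which break down heme from old red cells with Hmox1, none rose and 1 fell, namely Cd163, a receptor for hemoglobin bound to haptoglobin (-0.57 ± 0.11, adjusted p = 0.0130). Their summed scaled intensity was 69.8 to 80.0 in control and 63.8 to 82.3 in NaPB livers, which overlap. Of 5 endothelial markers 1 fell, and their sum was 14.7 to 16.4 in control and 11.0 to 13.1 in NaPB livers. Of 7 stellate cell markers 3 fell, with sums of 6.49 to 9.41 and 5.16 to 5.86, and of 3 tested bile duct markers 1 rose, with sums of 0.365 to 0.450 and 0.849 to 1.02. The sums of these 3 lists did not overlap between the diets, but a sum weighs its brightest genes most. Kdr alone, the endothelial gene that fell, was at 12.1 to 13.7 in control and 8.61 to 10.2 in NaPB livers. The other 4 endothelial markers were not called, at -0.26 in Clec4g, -0.02 in Pecam1, -0.001 in Lyve1 and 0.06 in Cdh5. The stellate gene Col3a1 alone was at 4.66 to 7.02 and 3.81 to 4.41, and Epcam alone at 0.227 to 0.279 and 0.619 to 0.848. Of 5 lymphocyte markers 1 fell, namely Cd8a (-0.58 ± 0.16, adjusted p = 0.0490). Its NaPB livers lay at 0.0362 to 0.0473, near the floor of 0.03. The calls of Cd8a and of Col3a1 each held in only 1 of the 8 fits that leave out an array. The sums of the lymphocyte markers overlapped at 0.715 to 0.755 and 0.682 to 0.769. Of the 8 hepatocyte markers 1 rose and 1 fell, 7 had a negative change, and their sum was 1170 to 1279 in control and 999 to 1156 in NaPB livers, again without overlap. This sum too weighs its brightest genes most. The other 6 were not called, at -0.47 in Apoa1, -0.35 in Fgb, -0.28 in Serpina1, -0.13 in Alb, -0.08 in Ttr and -0.08 in Tf. The median change of the 8 was -0.20, beside 0.0015 over all tested genes. The part of these cells in the levels of the enzymes was not tested.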

How the data were processed

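Total RNA from 8 rat livers was measured on single-colour Agilent arrays which the submitters' processing notes say were read by Agilent Feature Extraction 10.7. The deposited values are linear spot intensity and look scaled by array; for background subtraction, flags and scaling the sources used here give no method. Groups came from the diet dose in the labels. Arrays were scaled to a 75th percentile of 1 over 45904 named features, floored at 0.03 and log-transformed (log2), and a gene is the mean of its features. Genes above this floor on at least 3 arrays of a group were fitted with limma 3.58.1 (lmFit, eBayes, two-sided) in R 4.3.3, and p-values were adjusted by Benjamini-Hochberg over all 10944. A second fit ran over 30504 features. The code was tested on simulated data. Figures used matplotlib 3.10.9. Symbols were taken from the probe table, and all 9 occur in the reference gene table, whose coordinates were not used. The members, lists, pairs, floor and settings were chosen with earlier results of these data known. All 9 members were described; from each related list the largest rises and falls past the threshold were named, or the largest change where none passed, except for some cell markers, given as counts. The 20 alternatives covered scaling, floor, filter, features, replicate block, variance model, test and leaving out each array. The rats are separate animals, and the reported fit did not pair arrays by number. Same-numbered arrays had an r of deviations from the group means between -0.128 and 0.0762. So few arrays cannot exclude a shared order of processing.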

Additional observations from a re-analysis of the deposited data

Results flagged for a closer look

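In groups of 4 arrays, 80 gene and diet combinations were checked for 1 array far from the other 3 by Dixon's test, which chance passes in about 1 of 20, and 6 passed. Among the 9 enzyme genes it was Alas1 in NaPB replicate 4, at a scaled intensity of 82.5 against 55.6 to 58.0 in the other treated livers. The others were genes of the related lists: Cyp2b21 in control replicate 1 at 0.0467 (the other controls lay at or near the floor), Slc39a14 in NaPB replicate 4 at 0.766, Abcc3 in NaPB replicate 3 at 0.440, Gsta5 in NaPB replicate 3 at 40.3 and Col3a1 in NaPB replicate 3 at 4.41. Without NaPB replicate 4 the change of Alas1 did not pass (adjusted p = 0.113 in limma).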

How the results depend on the processing

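All 9 enzyme genes kept the sign of their change under all 20 alternatives except Urod, which kept it in 16. The call of Blvrb held in all 20. The number of the 9 called was 2 after quantile normalization, with the brightest feature and with array weights, and 3 with a floor of 0.1, with only genes above the median level and with the trended and robust variance prior; it was 1 to 2 when 1 array was left out. Alas1 passed with a floor of 0.1 and with only genes above the median level (1.02 in both, adjusted p = 0.0413 and 0.0326) and with the trended and robust prior (1.02, adjusted p = 0.0485); fewer genes are tested under the first 2 of these. Fech passed after quantile normalization (0.33, adjusted p = 0.0489), with a floor of 0.1 (0.33), above the median level (0.33), with the trended and robust prior (0.33) and with array weights (0.34), and Ppox with the brightest feature (-0.30). The cause was not tested. Leaving out 1 array gave Alas1 changes of 0.73 to 1.16, Fech 0.28 to 0.39 and Hmox1 0.41 to 0.65. The adjusted exact p of both pair differences was 0.0857 after quantile normalization, at 0.65 for Alas1 over Fech and 0.79 for Blvrb over Blvra. Leaving out 1 array gave 0.40 to 0.83, 0.67 to 0.88 and, for Hmox1 over Hmox2, 0.027 to 0.45, the last past the threshold only without NaPB replicate 2. The first pair passed in 3 and the second in 4 of these 8 fits. The unadjusted exact p of the second pair stayed at 0.0286 in all 8 and after quantile normalization, so that its adjusted p moved only with the other pairs.

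Over all genes the 1144 calls became 739 with no filter on dim genes, 583 with the replicate number as a replicate block, 320 with the Welch test and 625 to 980 with 1 array left out, with 698 without control replicate 1 and 625 without control replicate 2. The block could pair nothing known, and Blvrb passed with it (adjusted p = 0.0334). Calls in the related and marker lists went from 34 to 21 with the block, 16 with the Welch test and 26 to 31 with 1 array left out. The share of higher genes among the calls was 58.9%, 50.2% after quantile normalization, 41.3% with arrays at the same median and 68.4% with the Welch test. Signal over background was not given, so how far it limits the dim genes is unknown.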
